A study of Mus musculus with 8 samples.

Results

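Blood and lymphatic vessels of the intestinal mucosa were followed through 10 mouse genes, which were taken by symbol from the 56980 gene identifiers counted in each library. Pecam1, Cdh5, Kdr and Plvap mark blood endothelium, Lyve1, Prox1, Flt4, Pdpn and Ccl21a mark lymphatic endothelium, and Vegfc encodes the ligand of the Flt4 receptor. Read counts per gene came from jejunal mucosa of 8 male mice, 4 labelled FFA2 fl/fl and 4 labelled Adipoq-F2-KO. FFA2 fl/fl mice carry floxed alleles of Ffar2, the gene of the short-chain fatty acid receptor FFA2, and no Cre. Adipoq-F2-KO mice carry the same floxed alleles and an Adiponectin-Cre transgene, which is active in adipocytes, so the deletion was not aimed at vessels or epithelium. All mice were co-housed littermates, ate chow until 12 weeks of age, and then received a Western diet with 10% fructooligosaccharides (FOS), a fermentable fiber, for 2 weeks in thermoneutral housing. The material was scraped from the luminal surface, is labelled as mixed cell types, and was sequenced as stranded poly-A libraries with 75 bp single-end reads. Each library is labelled as a separate mouse sample. The comparison asked whether the vessel genes of the jejunum differ between genotypes in a study of how adipose FFA2 loss affects intestinal fat uptake.

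Each villus holds a dense net of blood capillaries under the epithelium and, in its core, a blind-ended lymphatic vessel called the lacteal. Sugars and amino acids leave by the capillaries. Dietary fat leaves as chylomicrons, which are too large for the capillary wall and enter the lacteal instead. VEGF-C signals through VEGFR-3, the product of Flt4, and maintains lacteals in the adult intestine, while VEGF-A signals through VEGFR-2, the product of Kdr, in blood vessels.

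Library depth ranged from 6007654 to 21712776 counts. FFA2 fl/fl 3, Adipoq-F2-KO 3 and Adipoq-F2-KO 4 held fewer than 10000000 counts each (shallow libraries), and the other 5 held more (deep libraries). Values are normalized counts, that is counts scaled by the size factor that DESeq2 gave each library, listed for libraries 1 to 4 of each genotype in turn. Epithelial markers dominated every library, with a summed normalized count of 601200 to 742300 over 10 genes. The same sum over the 10 vessel genes was 176.5 to 409.9 in FFA2 fl/fl and 180.0 to 569.6 in Adipoq-F2-KO libraries, and the vessel genes took 0.00232% of all counts. Ffar2, the deleted gene, had normalized counts of 7.27, 9.49, 4.18 and 8.51 in FFA2 fl/fl and 10.3, 7.44, 12.0 and 5.64 in Adipoq-F2-KO libraries. These overlapping values do not check the labels, because the deletion lies in adipocytes. The shallow libraries stood apart in adipocyte genes. Adipoq, which encodes adiponectin, had 123.4, 54.1 and 22.6 normalized counts in FFA2 fl/fl 3, Adipoq-F2-KO 3 and Adipoq-F2-KO 4 and 0 to 1.86 in the 5 deep libraries.

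The vessel genes did not differ between genotypes beyond the spread between libraries, and that spread was very wide for some of them and narrow for others. Of the 10, 8 had at least 10 counts in at least 4 libraries and were tested, and Pdpn and Ccl21a were not. DESeq2 called 0 of the 8 at an adjusted p below 0.05, where it called 0.0376% of the 15978 genes with a p. At an unadjusted p below 0.05 it also called 0 of the 8, against 3.04% of the 15978 genes. The other tools, edgeR's quasi-likelihood test and limma-voom, called 0 of the 8 at either threshold. Log2 fold changes of Adipoq-F2-KO over FFA2 fl/fl were above 0 for 7 of the 8 and below 0 for 1, with a median of 0.17, beside a median of -0.01 over all tested genes. Lyve1, counted among the 7, lay at 0.00 on this scale. The split was not stable, with 4 above and 4 below 0 (median -0.34) in the 5 deep libraries, 4 and 4 without FFA2 fl/fl 1, FFA2 fl/fl 4 or Adipoq-F2-KO 4, and 5 and 3 with edgeR and with limma-voom. The genotypes overlapped for all 10 vessel genes, while 2.12% of tested genes had genotypes that did not overlap. In tissue of mixed cells, fewer cells of a type and less RNA per cell cannot be told apart.

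**Figure D1:**
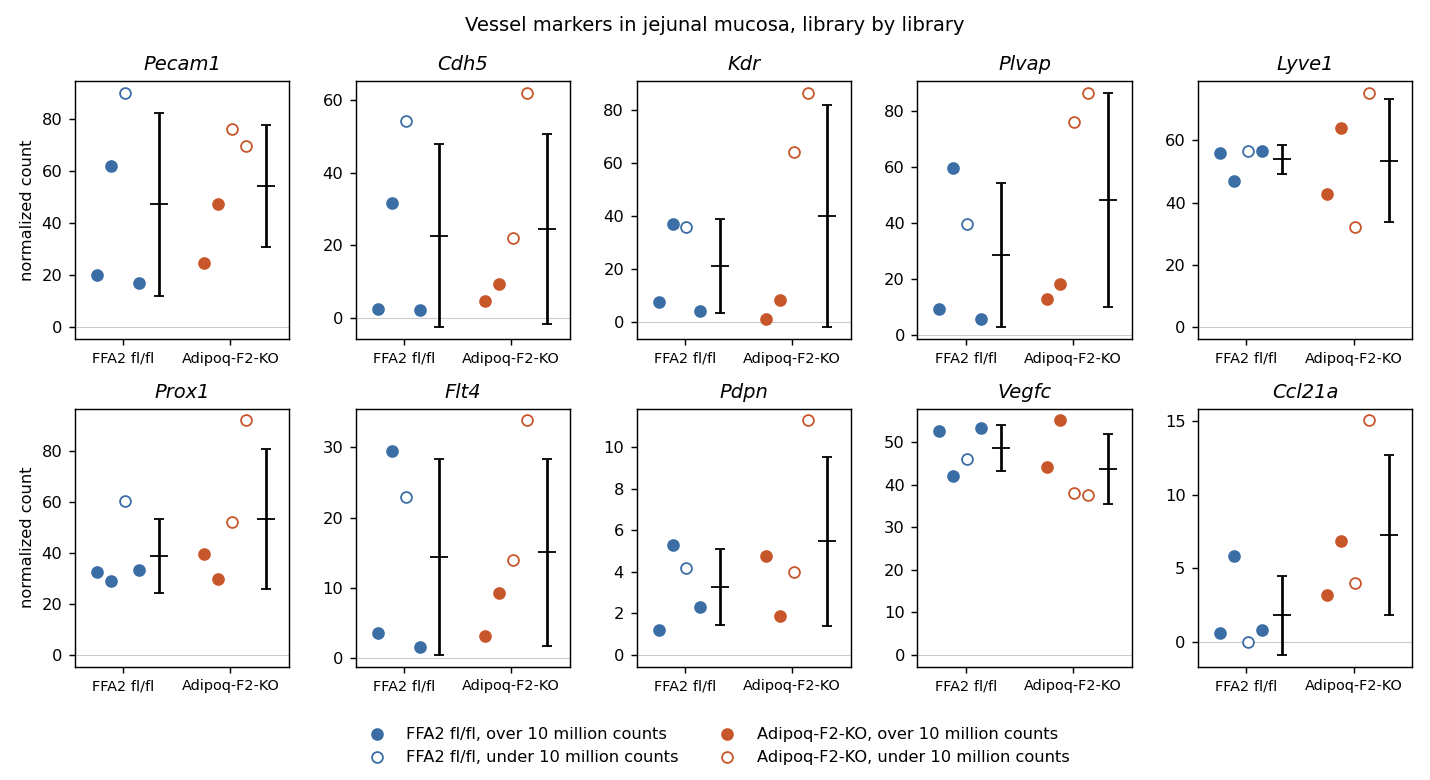
Normalized counts (vertical axes) of the 10 vessel genes in 4 FFA2 fl/fl (blue) and 4 Adipoq-F2-KO (orange) libraries, ordered 1 to 4 within a genotype, with open symbols for libraries under 10000000 counts and a black bar for the mean ± SD of each genotype. Pecam1, Cdh5, Kdr, Plvap and Flt4 are low in FFA2 fl/fl 1 and 4 and Adipoq-F2-KO 1, whereas Vegfc stays between 37.6 and 55.2 in all 8.

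Among the blood endothelial genes, Pecam1 encodes CD31, an adhesion molecule at endothelial cell contacts that platelets and leukocytes also carry. Its normalized counts were 19.99, 61.7, 89.9 and 17.0 in FFA2 fl/fl and 24.5, 47.1, 76.1 and 69.6 in Adipoq-F2-KO libraries. Both genotypes held low and high libraries, and the 3 highest values were those of the 3 shallow libraries. The means of 47.2 ± 35.1 and 54.3 ± 23.4 (SD, n = 4 each) gave a log2 fold change of 0.22 (SE 0.54, 95% interval -0.84 to 1.27, DESeq2 adjusted p = 0.9998).

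Cdh5 encodes VE-cadherin, the adherens junction protein of endothelial cells of both vessel types. Its normalized counts were 2.42, 31.6, 54.4 and 2.32 in FFA2 fl/fl and 4.74, 9.30, 22.02 and 62.0 in Adipoq-F2-KO libraries. Each genotype contained values near both ends, and the lowest library rested on 3 raw counts. The log2 fold change was 0.12 (SE 0.96, 95% interval -1.76 to 2.00, DESeq2 adjusted p = 0.9998).

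Kdr encodes VEGFR-2, the main signalling receptor for VEGF-A. Normalized counts were 7.27, 36.9, 35.6 and 3.87 in FFA2 fl/fl and 0.789, 8.06, 64.1 and 86.5 in Adipoq-F2-KO libraries. The lowest and both of the highest libraries were Adipoq-F2-KO, and the lowest rested on a raw count of 1, under the floor of 3 counts below which a gene was not told from absence. The log2 fold change was 0.93 (SE 1.26, 95% interval -1.55 to 3.40, DESeq2 adjusted p = 0.9998). Among the 5 deep libraries it was -1.84 (95% interval -4.21 to 0.53, DESeq2 unadjusted p = 0.128), so the direction for Kdr turned without the 3 shallow libraries.

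Plvap encodes the protein that forms the diaphragms of fenestrated capillaries, the type found in villi. Normalized counts were 9.09, 59.6, 39.7 and 5.42 in FFA2 fl/fl and 12.6, 18.0, 76.1 and 86.5 in Adipoq-F2-KO libraries. The 2 shallow Adipoq-F2-KO libraries exceeded every FFA2 fl/fl library, and the 2 deep ones lay inside the FFA2 fl/fl range. The log2 fold change was 0.75 (SE 0.76, 95% interval -0.74 to 2.24, DESeq2 adjusted p = 0.9998), and -0.70 among the 5 deep libraries (95% interval -2.61 to 1.21).

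**Figure D2:**
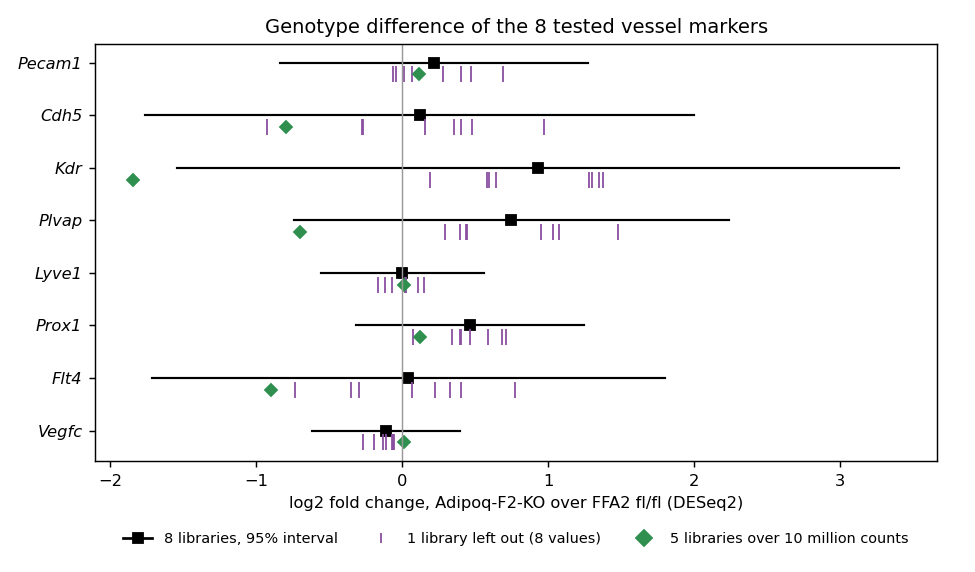
Log2 fold change of Adipoq-F2-KO over FFA2 fl/fl (horizontal axis, DESeq2) for the 8 tested vessel genes, with the 95% interval as a black line, the 8 values with 1 library left out as purple ticks, and the value from the 5 deep libraries as a green diamond. Every interval includes 0, the widest is that of Kdr (-1.55 to 3.40), and that of Vegfc runs from -0.62 to 0.39.

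The lymphatic genes fell into those that varied like the blood endothelial genes and those that did not. Flt4 encodes VEGFR-3, the receptor that lymphatic endothelium uses to sense VEGF-C. Normalized counts were 3.64, 29.5, 23.0 and 1.55 in FFA2 fl/fl and 3.16, 9.30, 14.01 and 33.8 in Adipoq-F2-KO libraries. The lowest library rested on 2 raw counts, under the floor, and the low libraries were the same 3 that were lowest for Pecam1, Cdh5, Kdr and Plvap, namely FFA2 fl/fl 1 and 4 and Adipoq-F2-KO 1. The log2 fold change was 0.04 (SE 0.90, 95% interval -1.72 to 1.80, DESeq2 adjusted p = 0.9998).

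Lyve1 encodes a hyaluronan receptor of lymphatic endothelium that some tissue macrophages also carry. Its normalized counts were 55.7, 46.9, 56.5 and 56.5 in FFA2 fl/fl and 42.6, 63.9, 32.0 and 75.2 in Adipoq-F2-KO libraries. The FFA2 fl/fl values lay inside the wider Adipoq-F2-KO range. The means were 53.9 ± 4.67 (SD, n = 4) and 53.4 ± 19.6 (SD, n = 4), and the log2 fold change was 0.00 (SE 0.29, 95% interval -0.56 to 0.56, DESeq2 adjusted p = 0.9998).

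Prox1 encodes the transcription factor that sets lymphatic identity and is also made by enteroendocrine and some crypt epithelial cells. Normalized counts were 32.7, 29.0, 60.6 and 33.3 in FFA2 fl/fl and 39.5, 29.8, 52.1 and 92.1 in Adipoq-F2-KO libraries. Its 3 highest values also came from the shallow libraries, and the 5 deep libraries lay between 29.0 and 39.5. The log2 fold change was 0.46 (SE 0.40, 95% interval -0.32 to 1.24, DESeq2 adjusted p = 0.9998), but 0.08 without Adipoq-F2-KO 4 and 0.12 in the 5 deep libraries.

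Pdpn, which encodes podoplanin, a sialoglycoprotein of lymphatic endothelium and of stromal cells, had raw counts of 2, 10, 2 and 3 in FFA2 fl/fl and 6, 3, 2 and 6 in Adipoq-F2-KO libraries. Ccl21a encodes a chemokine by which lymphatic endothelium and lymphoid stroma draw dendritic cells and T cells. Its raw counts were 1, 11, 0 and 1 in FFA2 fl/fl and 4, 11, 2 and 8 in Adipoq-F2-KO libraries. Pdpn was at or under 3 counts in 5 libraries and Ccl21a in 4, so differences between genotypes were not detectable at this depth, and a raw count of 0 allows up to 3 counts. Without the filter on low counts the log2 fold changes were 0.68 (95% interval -1.03 to 2.40) for Pdpn and 1.77 (95% interval -0.25 to 3.80, DESeq2 unadjusted p = 0.0865) for Ccl21a. Ccl21a has near-identical copies in the genome, between which reads may be split, so its counts are uncertain.

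Vegfc encodes VEGF-C, the growth factor that lacteals depend on, which in the villus is made by smooth muscle and stromal cells and by macrophages. Normalized counts were 52.7, 42.2, 46.0 and 53.4 in FFA2 fl/fl and 44.2, 55.2, 38.0 and 37.6 in Adipoq-F2-KO libraries. It was the steadiest of the 10, the highest library holding 1.47 times the lowest, and the shallow Adipoq-F2-KO libraries 3 and 4 were lowest. The means of 48.6 ± 5.42 and 43.8 ± 8.19 (SD, n = 4 each) gave a log2 fold change of -0.11 (SE 0.26, 95% interval -0.62 to 0.39, DESeq2 adjusted p = 0.9998). The interval for Vegfc was the narrowest of the 8, followed by that of Lyve1.

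Divided by the length of their exons, Plvap, Vegfc and Lyve1 were the most abundant vessel transcripts, with 19.3 ± 16.1, 18.9 ± 2.83 and 18.4 ± 4.53 normalized counts per kb (SD, n = 8). Pecam1 followed with 8.14 ± 4.48 per kb, Cdh5 with 5.62 ± 5.65, Prox1 with 5.50 ± 2.59 and Ccl21a with 5.20 ± 5.66. Kdr, Pdpn and Flt4 were lowest, with 3.36 ± 3.49, 2.40 ± 1.73 and 1.79 ± 1.53 per kb. Most neighbours in this order were not separated by their spread. Plvap exceeded Vegfc in 4 of 8 libraries, Vegfc exceeded Lyve1 in 6 and Cdh5 exceeded Prox1 in 3, whereas Lyve1 exceeded Pecam1 in 7 of 8 and Pecam1 exceeded Cdh5 in 7 of 8. For the receptor and its ligand, Flt4 lay between 0.188 and 4.11 per kb and Vegfc between 15.4 and 22.5 per kb, with no overlap between the genes.

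**Figure D3:**
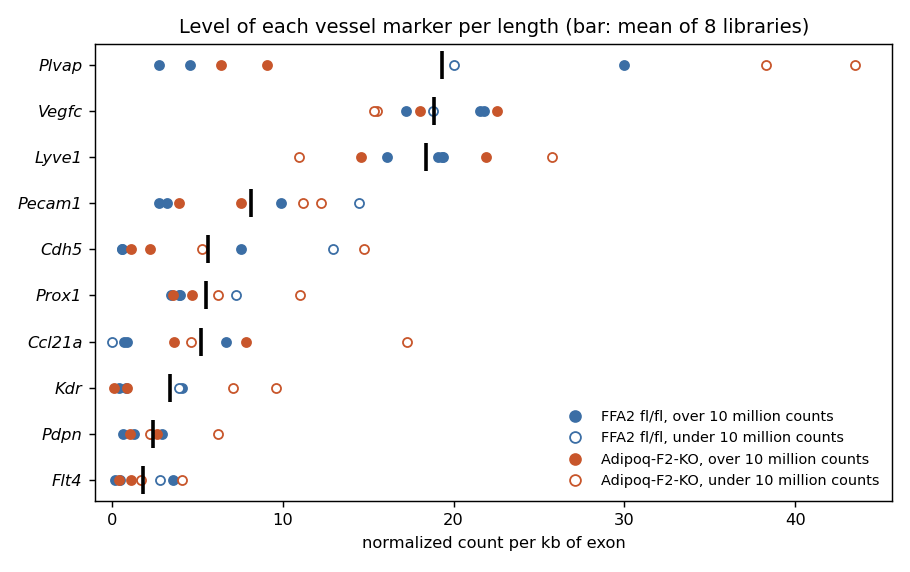
Normalized count per kb of exon (horizontal axis) of each vessel gene in the 8 libraries, with the mean as a black bar, blue for FFA2 fl/fl, orange for Adipoq-F2-KO and open symbols for shallow libraries. Plvap spreads from 2.73 to 43.5 per kb while Vegfc, with nearly the same mean, stays between 15.4 and 22.5.

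The spread between libraries was the main feature of the vessel genes. On the log2(normalized count + 1) scale the SD over the 8 libraries was 0.92 for Pecam1, 1.73 for Cdh5, 1.99 for Kdr, 1.44 for Plvap and 1.43 for Flt4. Tested genes with a mean within 2-fold of each of these had a median SD of 0.34, 0.46, 0.41, 0.38 and 0.52, in the same order. For Prox1 and Lyve1 the SD was 0.58 and 0.37, beside 0.35 and 0.33 for genes of like mean, and for Vegfc it was 0.21 beside 0.35.

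Pecam1, Cdh5, Kdr, Plvap and Flt4 rose and fell together. Over the 8 libraries, Pearson's r lay between 0.85 and 0.96 and Spearman's rho between 0.76 and 0.95 in the 10 pairs among them, a set that was picked after its values were seen. Of all 45 pairs of vessel genes, 9 passed an exact permutation test of r after Benjamini-Hochberg (BH) adjustment over the 45, 8 of them among these 10 pairs. With rho, 5 of the 45 passed, all of them among the same 10. In each pair the 2 libraries farthest from the median of its first gene were then left out. First meant earlier in the order Pecam1, Cdh5, Kdr, Plvap, Lyve1, Prox1, Flt4, Pdpn, Vegfc and Ccl21a, so the libraries left out differed between pairs. Without them r in the 10 pairs lay between 0.81 and 0.97. Genotype, depth and tissue content all vary among these libraries, and genes of 1 library share its size factor.

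For the other vessel genes the correlations with these 5 were lower or negative, and the difference itself was not tested. Lyve1 had r between -0.13 and 0.13 with the 5 genes, Prox1 between 0.54 and 0.68, Pdpn between 0.55 and 0.76, and Ccl21a between 0.34 and 0.54, and none of these 20 pairs passed. With the 2 libraries farthest from the median of the first gene left out of each pair, these ranges widened to -0.73 to 0.36 for Lyve1, -0.02 to 0.64 for Prox1, 0.19 to 0.92 for Pdpn and -0.19 to 0.42 for Ccl21a, so these correlations were not stable. Vegfc ran the opposite way, with r between -0.85 and -0.64, and none of its 5 pairs passed either, the smallest exact permutation p being 0.0142 with Plvap (BH-adjusted 0.0531). With the farthest libraries left out in the same way, r of Vegfc with the 5 genes lay between -0.94 and -0.31. The 1 negative pair that passed joined Vegfc and Pdpn (r = -0.86, rho = -0.79, exact permutation p = 0.00593, BH-adjusted 0.0381), and Pdpn had 10 counts at most in any library. Without the 2 libraries farthest from the median of Pdpn this r was -0.84.

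**Figure D4:**
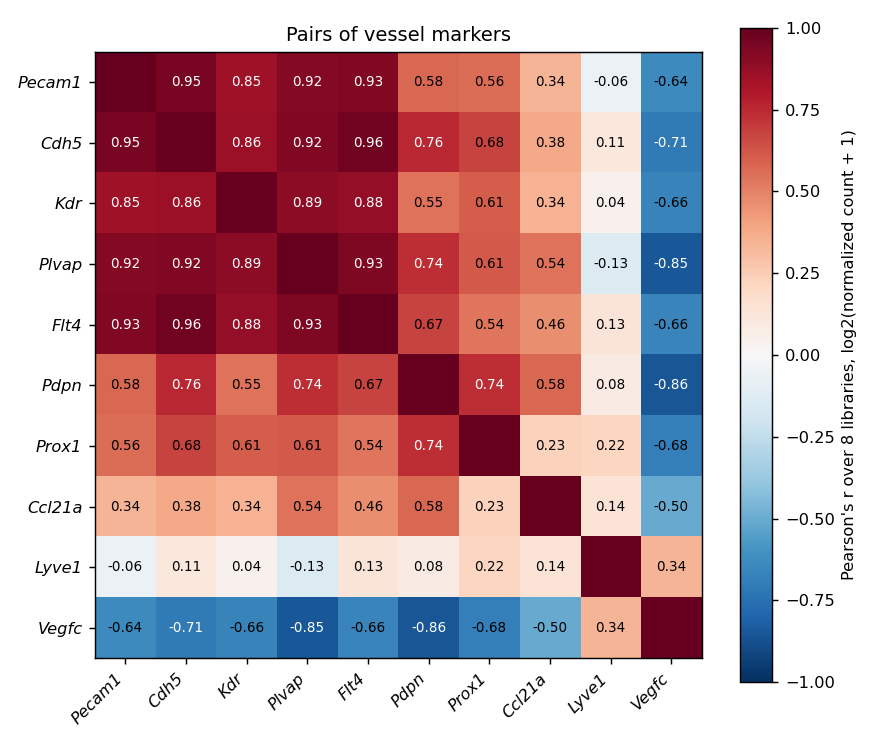
Pearson's r (colour, from -1 in blue to 1 in red, and printed in each cell) over 8 libraries between the log2(normalized count + 1) values of each pair of the 10 vessel genes. The 5 genes at the upper left form a block of r between 0.85 and 0.96, the row of Lyve1 stays near 0 with them, and the row of Vegfc is negative for every gene except Lyve1.

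Promoter sequences are shown for the receptors Kdr and Flt4, which moved together, and for the ligand Vegfc, which did not move with them. RefSeq (GRCm38.p6) gave promoters for 6 of the 10 vessel genes, and the 250 bases before the start site are printed 5′ to 3′ on the strand of the gene. They lie at chr5:75978456-75978705 (minus strand), chr11:49609429-49609678 (plus strand) and chr8:54077282-54077531 (plus strand). Capitals mark GGAA and its reverse complement TTCC, the core bound by ETS factors, a family that includes the endothelial regulators Erg and Etv2.
Kdr: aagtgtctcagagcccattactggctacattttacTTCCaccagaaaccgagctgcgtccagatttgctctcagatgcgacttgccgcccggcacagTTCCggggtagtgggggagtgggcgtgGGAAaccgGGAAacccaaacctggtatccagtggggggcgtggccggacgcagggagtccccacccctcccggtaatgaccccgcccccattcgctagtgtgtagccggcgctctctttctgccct
Flt4: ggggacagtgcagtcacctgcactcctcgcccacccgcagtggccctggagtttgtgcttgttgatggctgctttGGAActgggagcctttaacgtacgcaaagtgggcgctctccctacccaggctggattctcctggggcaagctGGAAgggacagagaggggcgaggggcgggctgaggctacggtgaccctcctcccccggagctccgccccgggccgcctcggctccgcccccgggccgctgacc
Vegfc: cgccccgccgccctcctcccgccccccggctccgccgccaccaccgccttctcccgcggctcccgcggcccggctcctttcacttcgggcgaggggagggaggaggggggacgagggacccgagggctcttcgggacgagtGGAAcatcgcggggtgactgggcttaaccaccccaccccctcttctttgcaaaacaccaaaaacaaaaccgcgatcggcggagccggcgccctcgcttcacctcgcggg
Kdr held 4 matches, Flt4 2 and Vegfc 1, while Ccl21a held 4, Pdpn 3, and Prox1 2 and 5 at its separate start sites. Pecam1, Cdh5, Plvap and Lyve1 had no entry. The median over 32851 promoter windows of this length was 3 and 93.4% held at least 1 on either strand. The longer CCGGAA, which contains GGAA, was found in 12.0% of all windows on either strand. Among these 3 it matched only in Kdr, with 1 match. A match is a run of letters, and binding was not measured.

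Smooth muscle content differed between libraries and was set beside the vessel genes. Villus cores hold smooth muscle strands that run along the lacteal. The smooth muscle score, the mean of log2 values of 12 genes centred on the 8 libraries, was -2.35, 0.86, 3.15 and -2.43 in FFA2 fl/fl and -1.64, 0.78, -0.03 and 1.66 in Adipoq-F2-KO libraries. The libraries with the lowest scores, FFA2 fl/fl 1 and 4 and Adipoq-F2-KO 1, were those lowest for Pecam1, Cdh5, Kdr, Plvap and Flt4. The largest gap between neighbouring scores was 1.61 and the next 1.48, so the libraries were not treated as separate clusters.

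Over the 8 libraries Cdh5 followed this score most closely (r = 0.93, exact permutation p = 0.00191, BH-adjusted over 10 genes 0.00955, rho = 0.95, exact permutation p = 0.00114, BH-adjusted 0.0114). Pecam1 had r = 0.92 (exact permutation p = 0.00189, BH-adjusted 0.00955) and rho = 0.86 (exact permutation p = 0.0107, BH-adjusted 0.0357). Flt4 had r = 0.89 (exact permutation p = 0.00593, BH-adjusted 0.0198) and rho = 0.88 (exact permutation p = 0.00724, BH-adjusted 0.0357). These 3 of the 10 passed. Plvap (r = 0.76, rho = 0.76, exact permutation p = 0.0384 and 0.0368, BH-adjusted 0.0959 and 0.0919) and Kdr (r = 0.71, rho = 0.69, exact permutation p = 0.0553 and 0.0694, BH-adjusted 0.111 and 0.139) did not pass.

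Lyve1 had r = 0.25 and rho = 0.26 with the score, Prox1 0.54 and 0.36, Pdpn 0.54 and 0.60, Vegfc -0.41 and -0.43, and Ccl21a 0.23 and 0.29, with exact permutation p between 0.132 and 0.586 (BH-adjusted 0.2205 or more). Without FFA2 fl/fl 3 and 4, the libraries farthest from the median score, r was 0.90 for Cdh5, 0.88 for Pecam1 and 0.91 for Flt4, with BH-adjusted exact permutation p of 0.0764, 0.0833 and 0.0833. In the 5 deep libraries r was 0.91, 0.98 and 0.90 for the same genes, with no test. The scores of these 5 form a low group (-2.43 to -1.64) and a high group (0.78 and 0.86). An r over them, here and for Ccl21a and Prox1 below, rests on the step between the groups and shows no graded relation. Ccl21a had r = 0.94 (BH-adjusted exact permutation p = 0.0278) without FFA2 fl/fl 3 and 4 and also 0.94 in the 5 deep libraries, on at most 11 raw counts a library. In those 5 libraries the correlation of Prox1 turned to r = -0.67.

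**Figure D5:**
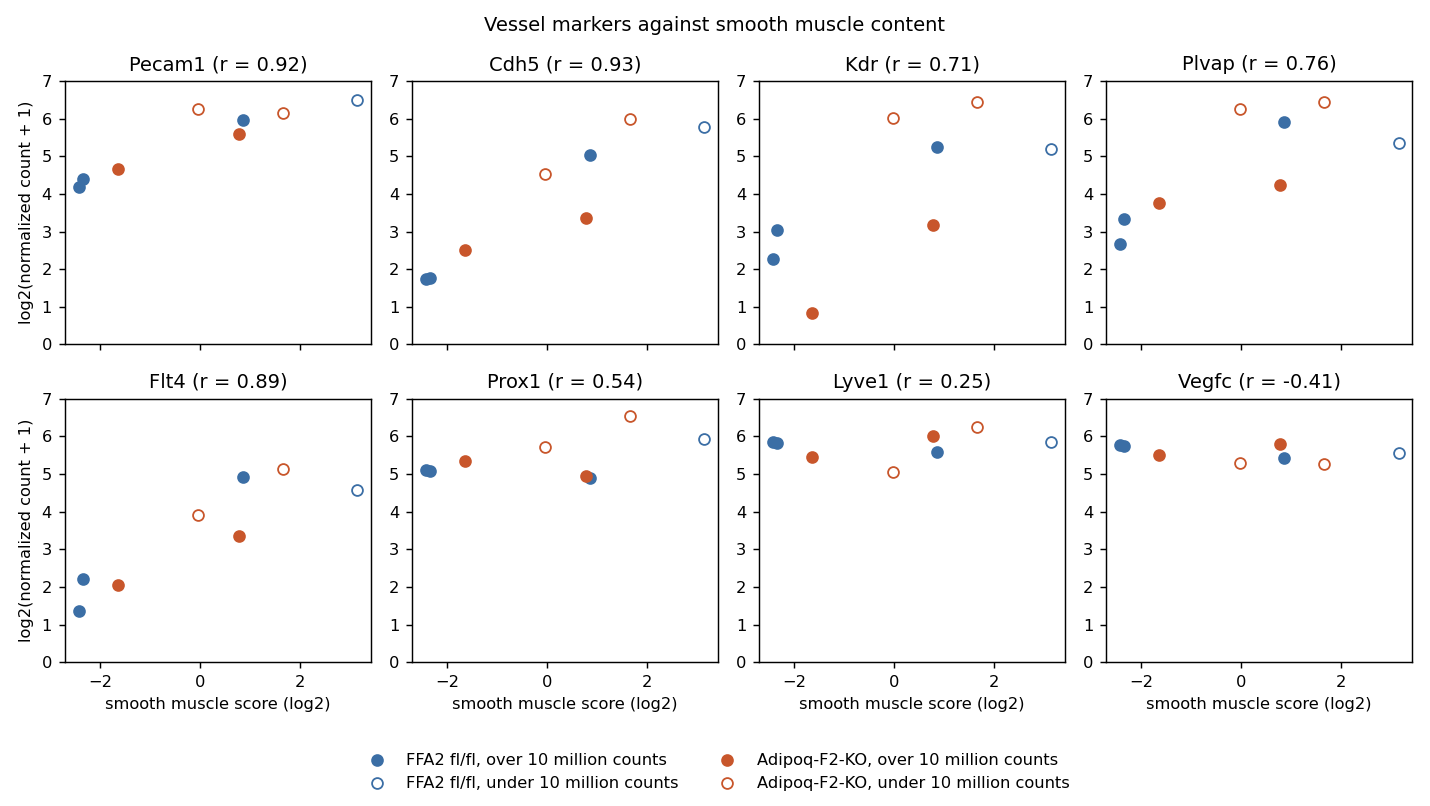
Log2(normalized count + 1) of 8 vessel genes (vertical axes) against the smooth muscle score of the library (horizontal axes, log2), 1 point a library, blue for FFA2 fl/fl, orange for Adipoq-F2-KO and open symbols for shallow libraries. Pecam1, Cdh5 and Flt4 climb with the score (r = 0.92, 0.93 and 0.89), while Lyve1 (0.25) and Vegfc (-0.41) stay nearly level.

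With the smooth muscle score as a covariate in DESeq2, the SE of the log2 fold change dropped from 0.54 to 0.29 for Pecam1, from 0.96 to 0.52 for Cdh5 and from 0.90 to 0.58 for Flt4. The fold changes then were 0.24, 0.32 and -0.07, and 0 of the 8 had an unadjusted p below 0.05.

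Other cell types moved with the same libraries. The pericyte score, over 6 tested genes of the cells that wrap capillaries, was -1.83, 0.87, 2.17 and -1.81 in FFA2 fl/fl and -1.68, 0.35, 0.15 and 1.77 in Adipoq-F2-KO libraries, thus lowest in the same 3. The fibroblast score of 8 tested genes was -1.56, 0.62, 1.62 and -1.84, and -0.90, 0.26, 0.62 and 1.17. The adipocyte score of 4 tested genes, which leave out Adipoq, was 2.27, 1.37 and 1.40 in the shallow libraries and -1.49 to -0.57 in the 5 deep ones. FFA2 fl/fl 2, which exceeded the other deep libraries in Pecam1, Cdh5, Kdr, Plvap and Flt4, had an adipocyte score of -0.72. Over the 8 adipocyte genes the summed normalized count was 1610 to 2254 in FFA2 fl/fl and 1524 to 2074 in Adipoq-F2-KO libraries, most of it from Lipe, which enterocytes also express. The part of these cell types in the levels of the vessel genes was not tested.

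Genes with patterns most like the vessel genes were named for Cdh5 and Flt4 among 10225 tested genes with a mean normalized count of at least 50, by Pearson's r over the 8 libraries and with no test. For Cdh5 they were Zeb2 (0.989), Lamb1 (0.988), Odf2 (0.987), Lifr (0.985) and Pdgfra (0.981). Lamb1 encodes a laminin chain of basement membranes and Pdgfra a receptor of mucosal fibroblasts. For Flt4 they were Lama5 (0.975), Nid1 (0.969), Nav1 (0.966), Aldh1a3 (0.966) and Odf2 (0.964), where Lama5 and Nid1 also encode basement membrane proteins.

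In the wider list of blood endothelial genes, 13 of 28 were tested, 0 were called at an adjusted p, and 9 had fold changes above 0 and 4 below, with a median of 0.22. At an unadjusted p below 0.05, DESeq2 called 0 higher and 1 lower, Egfl7, beside 3.04% of all genes. Egfl7 encodes a protein that endothelial cells secrete into the matrix. Its normalized counts were 163.6, 118.1, 131.7 and 259.3 in FFA2 fl/fl and 102.6, 104.2, 82.1 and 114.7 in Adipoq-F2-KO libraries. The genotypes did not overlap, as in 2.12% of tested genes, yet the difference did not pass (log2 fold change -0.74, SE 0.27, DESeq2 unadjusted p = 0.00598, adjusted p = 0.9998). FFA2 fl/fl 4, the library lowest for Pecam1, Cdh5, Plvap and Flt4, was highest for Egfl7. Of the genes not among the 10, Cd34, a sialomucin of capillary endothelium and stromal cells, had the next smallest p (log2 fold change 0.64, SE 0.69, DESeq2 unadjusted p = 0.353). The 9 tested genes of this list that are not among the 10 had a highest over lowest library of 2.49 to 31.6, with a median of 9.46. Raw counts over all libraries differed widely in this list, from 1292 for Egfl7 and 824 for Ptprb to 13 for Sox17 and Nos3 and 5 for Cldn5. The median log2 fold change of the list was -0.70 in the 5 deep libraries. With 1 library left out it ran from -0.11 (without Adipoq-F2-KO 4, 5 above 0 and 8 below) to 0.77 (without FFA2 fl/fl 3, 11 above and 2 below).

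In the list of lymphatic endothelial genes 8 of 14 were tested, 0 were called at either threshold, and the median log2 fold change was 0.02. With 1 library left out this median ran from -0.48 (without Adipoq-F2-KO 4) to 0.61 (without FFA2 fl/fl 3). Without FFA2 fl/fl 2, 1 gene had an unadjusted p below 0.05 (DESeq2), beside 2.93% of all genes in that fit. Nrp2, a co-receptor for VEGF-C, had normalized counts of 20.6, 131.2, 485.2 and 22.4 in FFA2 fl/fl and 22.1, 86.2, 80.1 and 218.1 in Adipoq-F2-KO libraries. These were low in the same 3 libraries as Flt4 (log2 fold change -0.70, SE 1.11, DESeq2 unadjusted p = 0.531). Reln, which lymphatic endothelium secretes, was higher in 2 Adipoq-F2-KO libraries than in any FFA2 fl/fl library (log2 fold change 0.80, SE 0.60, DESeq2 unadjusted p = 0.179). Foxc2 and Tbx1, transcription factors of lymphatic development, had 3 and 4 raw counts over all libraries.

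Of the VEGF ligands, receptors and processing genes 10 of 13 were tested and 0 were called at either threshold, with a median of -0.06. With 1 library left out the median ran from -0.43 (without Adipoq-F2-KO 4) to 0.32 (without FFA2 fl/fl 3). In the 5 deep libraries 1 of the 10 had an unadjusted p below 0.05 (DESeq2), beside 864 of 15986 genes in that fit. Vegfa, the ligand of Kdr, was the abundant ligand and steady, at 1811 ± 157.4 in FFA2 fl/fl and 1698 ± 223.6 normalized counts in Adipoq-F2-KO libraries (SD, n = 4 each). Its log2 fold change was -0.10 (SE 0.12, DESeq2 unadjusted p = 0.429). Vegfb had a log2 fold change of -0.40 (SE 0.32, DESeq2 unadjusted p = 0.210). Vegfd, the second ligand of Flt4, differed from Vegfc in its pattern. Its normalized counts were 0.606, 7.38, 33.5 and 1.55 in FFA2 fl/fl and 3.16, 9.92, 6.01 and 20.7 in Adipoq-F2-KO libraries, and FFA2 fl/fl 1 and 4 were lowest (log2 fold change -0.03, SE 1.03). Ccbe1, whose product aids the cleavage of VEGF-C, had a log2 fold change of 0.00 (SE 0.39). Vegfd and Ccbe1 lie outside the rule for named genes and were chosen after their values were seen, as ligand and processing partner in the pathway of Vegfc.

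Of the angiopoietin, Notch and adrenomedullin genes 9 of 16 were tested and 0 were called at either threshold, with a median of 0.17. Notch1, a receptor also used by the crypt epithelium, had a log2 fold change of 0.17 (SE 0.16, DESeq2 unadjusted p = 0.284). S1pr1, the receptor for sphingosine-1-phosphate on endothelium, had 0.71 (SE 0.92, DESeq2 unadjusted p = 0.441). Of the vessel lipid handling genes 9 of 12 were tested and 0 were called, with a median of -0.13. Angptl4, an inhibitor of lipoprotein lipase, had normalized counts of 806.3, 986.7, 585.5 and 993.7 in FFA2 fl/fl and 974.9, 785.5, 338.4 and 381.6 in Adipoq-F2-KO libraries (log2 fold change -0.44, SE 0.32, DESeq2 unadjusted p = 0.166), and was lowest in the 3 shallow libraries. Slc27a4, the fatty acid transporter FATP4 of enterocytes, had -0.13 (SE 0.17, DESeq2 unadjusted p = 0.426). Without FFA2 fl/fl 3, 2 of the 9 vessel lipid handling genes had an unadjusted p below 0.05 (DESeq2), beside 8.15% of all genes in that fit. Gpihbp1, which carries lipoprotein lipase across capillary walls, had 11 raw counts over all libraries.

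Markers of other cell types were compared in the same fit, and the adjusted p was at least 0.9998 for every gene named from the lists. All 12 smooth muscle genes had log2 fold changes below 0, with a median of -0.91, and 0 passed at either threshold. That direction rested on FFA2 fl/fl 3, without which 11 of the 12 were above 0 with a median of 1.24, and it also turned in the 5 deep libraries (11 above 0, median 0.43) and with limma-voom (10 above 0, median 0.89). Of these, Tagln had -0.78 (DESeq2 unadjusted p = 0.198) and Cnn1 -1.43 (DESeq2 unadjusted p = 0.326). The summed normalized count of the 12 was 3823 to 33620 in FFA2 fl/fl and 4214 to 13720 in Adipoq-F2-KO libraries. Without FFA2 fl/fl 3, the library with the highest smooth muscle score, the median log2 fold change of the 8 vessel genes was 0.70.

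The macrophage list, which bears on Lyve1 and Vegfc, had a median of 0.54 over 8 tested genes, with 7 above 0. Mertk, a receptor for dying cells, had a lower mean in Adipoq-F2-KO (log2 fold change -0.27, SE 0.13, DESeq2 unadjusted p = 0.0413, adjusted p = 0.9998). It alone in this list had an unadjusted p under 0.05, beside 3.04% of all genes. C1qc had 0.80 (DESeq2 unadjusted p = 0.0644). Mean normalized counts in FFA2 fl/fl and Adipoq-F2-KO were 4430 and 3690 for Mertk but 30.9 and 53.3 for C1qc. The cells behind the Mertk counts were not measured. Without FFA2 fl/fl 2, 3 of the 8 macrophage genes had an unadjusted p below 0.05 (median 0.86, beside 2.93% of all genes), and without FFA2 fl/fl 1 or any 1 of Adipoq-F2-KO 2, 3 and 4 none had one. The enteroendocrine list, which bears on Prox1, had a median of -0.05 over 10 tested genes, with -0.17 for Sct (DESeq2 unadjusted p = 0.252) and 0.37 for Insm1 (DESeq2 unadjusted p = 0.253). The lymphoid follicle list, which bears on Ccl21a, had a median of 1.10 with 8 of 8 tested genes above 0 and 0 with an unadjusted p below 0.05. Without FFA2 fl/fl 2 the median was 2.52, with 7 of the 8 at an unadjusted p below 0.05 and 3 at an adjusted p below 0.05 (DESeq2), where 2.93% and 0.144% of all genes were called. With the replicate block, a pairing by title order that no label gives, 6 had an unadjusted p below 0.05 (median 1.80, 2.71% of all genes). With limma-voom 3 had one (median 1.95, 4.3% of all genes). In both fits 0 of the 8 passed after adjustment, beside 0.0688% of all genes with the block and 0.00626% with limma-voom. Its leading genes were the B cell receptors Fcer2a at 1.06 (DESeq2 unadjusted p = 0.0911) and Cr2 at 1.67 (DESeq2 unadjusted p = 0.105).

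The remaining lists held 0 genes with an unadjusted p below 0.05. Medians were -0.47 for 6 pericyte genes (Cspg4 -0.42, Kcnj8 -0.85), 0.01 for 8 fibroblast genes (Fbln1 -0.11, Dcn -0.23), 0.16 for 4 mesothelial genes (Lrrn4 -1.28, Upk1b 0.38), 0.09 for 10 epithelial genes (Sis 0.16, Apoa4 0.22) and -0.26 for 4 adipocyte genes (Lipe 0.05, Plin4 -0.36). The DESeq2 p of these genes was 0.0598 or more. Mean normalized counts in FFA2 fl/fl and Adipoq-F2-KO were 4442 and 4123 for Fbln1 but 97.1 and 82.1 for Dcn, and the cells behind the Fbln1 counts were not measured. Without FFA2 fl/fl 3 the medians were 0.86 for the pericyte, 1.00 for the fibroblast and 1.93 for the adipocyte genes. In that fit 2 of the 4 adipocyte genes had an unadjusted p below 0.05 and 1 an adjusted p below 0.05, and 1 mesothelial and 1 epithelial gene had an unadjusted p below 0.05, where 8.15% of all genes had one and 0.645% passed after adjustment. The only red blood cell gene tested, Alas2, had -0.65 (DESeq2 unadjusted p = 0.179), and the hemoglobin genes Hba-a2 and Hbb-bt were at 0 counts in all 8 libraries. The part of these cell types in the vessel gene results was not tested.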

How the data were processed

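The authors deposited 1 table of whole-number read counts per gene for each of 8 libraries of mouse jejunal mucosa. Per the labels and the study's methods, reads were trimmed with Trimmomatic, aligned with STAR to the mouse genome (GRCm38/mm10) and counted with featureCounts. Versions, the gene annotation and the strand setting of the counting are not given in the sources used here, and the only opposite-strand gene that shares exon sequence with a vessel gene, Prox1os (133 bp of Prox1), held 1 count over all libraries. Total counts ranged from 6007654 to 21712776, and the reads carried no molecular identifiers, so intervals and floors speak to counting error and differences among libraries only.

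Symbols and exon lengths came from GENCODE M21, which held 52125 of the 56980 identifiers. Genes were kept when 4 or more libraries held 10 or more counts (15986 genes) and tested with DESeq2 1.42.0 in R 4.3.3 on the deposited counts, genotype being the only term, as the study used DESeq2 (two-sided Wald tests, BH adjustment over all genes, threshold 0.05). DESeq2 gave no p for 8 genes. List scores, taken over the tested genes of a list, and correlations used log2(normalized count + 1). Correlations were tested over all 40320 pairings of 8 libraries, two-sided. Alternatives were edgeR 4.0.16, limma 3.58.1 (voom), other scaling, filters and covariates, a replicate block, the 5 deep libraries and leaving out each library. The replicate block paired libraries by the order of their titles, a pairing that no label gives. On counts simulated from these libraries, DESeq2 recovered 49, 34, 40 and 50 of 50 genes changed 0.25-, 0.5-, 2- and 4-fold, with 13 false calls among 15986 genes. The changed genes all had mean normalized counts above 50, and every gene was given the same spread between libraries (dispersion 0.05). Most vessel genes had lower means and several spread far more, so this recovery does not apply to them.

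Named genes were the 10 vessel genes, up to 2 tested genes with the smallest p in each other list, and the 5 genes most like Cdh5 and Flt4. Ffar2 was named as the deleted gene, and Adipoq, Vegfd, Ccbe1, Ptprb, Cldn5, Sox17, Nos3, Foxc2, Tbx1, Gpihbp1, Hba-a2 and Hbb-bt, which lie outside this rule, were chosen after their values were seen. The vessel genes and the lists were chosen with earlier results of these data known. Separate mice per library are stated by the labels alone, so p-values measure the spread between these samples.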

Additional observations from a re-analysis of the deposited data

Results flagged for a closer look

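Within each genotype, the highest or lowest library of a vessel gene was set against its nearest neighbour, and the gap exceeded Dixon's limit in 3 of 20 sets of 4 libraries. Chance gives about 1 in 20. FFA2 fl/fl 2 stood below the other FFA2 fl/fl libraries for Lyve1 with a normalized count of 46.9, the gap being 0.921 of the range. FFA2 fl/fl 3, a shallow library, stood above the others for Prox1 with 60.6 (gap 0.865 of the range). FFA2 fl/fl 2 also stood above the others for Ccl21a with 5.798 (gap 0.867 of the range), which rests on 11 raw counts.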

How the results depend on the processing

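Under all 17 alternatives 0 of the vessel genes tested had a p below 0.05, adjusted or not. The filter of at least 20 counts in all 8 libraries left 2 of them, Pecam1 and Prox1, and in the 5 deep libraries DESeq2 gave no adjusted p for Cdh5, Kdr, Plvap and Flt4. The median log2 fold change of the vessel genes, 0.17, was -0.34 in the 5 deep libraries and ran from -0.02 (without FFA2 fl/fl 4) to 0.70 (without FFA2 fl/fl 3) with 1 library left out. The number of all genes with an adjusted p below 0.05, 6, was 3 with no filter, 11 with the replicate block, 78 in the 5 deep libraries, 2 with edgeR and 1 with limma-voom, and 2 to 103 with 1 library left out, 103 being without FFA2 fl/fl 3. The number of vessel genes whose correlation with smooth muscle passed, 3, was 1 (Ccl21a, r = 0.94) when FFA2 fl/fl 3 and 4, whose scores lay farthest from the median, were left out.

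Prox1 stayed above 0 in all 17 alternatives, but was 0.12 in the 5 deep libraries. In the 5 deep libraries the sign turned for Cdh5 (-0.80), Kdr (-1.84), Plvap (-0.70), Flt4 (-0.90) and Vegfc (0.0124). The correlation of Prox1 with smooth muscle was -0.67 in these 5, over scores that fall into separate groups. Kdr was -0.55 with limma-voom, and Flt4 -0.068 with the smooth muscle covariate and -0.044 with edgeR. Lyve1, near 0 in the main fit, was -0.0078 with TMM factors, -0.0122 with edgeR, -0.0102 with the blood endothelium covariate, -0.0025 without the filter, -0.037 with the smooth muscle covariate and -0.034 with limma-voom. With 1 library left out, log2 fold changes ran from -0.065 to 0.69 for Pecam1, -0.93 to 0.97 for Cdh5, 0.19 to 1.38 for Kdr, 0.29 to 1.48 for Plvap, -0.17 to 0.15 for Lyve1, 0.08 to 0.71 for Prox1 and -0.74 to 0.78 for Flt4. The smallest p for Plvap was 0.0549 (DESeq2 unadjusted p without FFA2 fl/fl 2). The median of the smooth muscle genes, added after seeing the data, turned from -0.91 to 1.24 without FFA2 fl/fl 3, 0.495 with the replicate block, 0.47 with the blood endothelium covariate, 0.43 in the 5 deep libraries, 0.89 with limma-voom and 0.03 with the smooth muscle covariate. The cause of these turns was not tested.

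Replicate numbers follow the order of the sample titles, and no label pairs libraries between genotypes. Same-numbered libraries did not all deviate together (correlations of deviations 0.54, 0.29, 0.01 and -0.42 for numbers 1 to 4), and only numbers 1 and 2 matched best with their own number. With the replicate block as pairing, Kdr was -0.15 and Lyve1 -0.043, and no vessel gene passed. Depth limits Pdpn and Ccl21a, which had 34 and 38 counts in all. The 3 libraries low in Cdh5, Kdr and Flt4 were deep ones.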
